A study of Danio rerio with 6 samples.

Results

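Cadherins and protocadherins are membrane proteins that bind cells to each other through calcium-dependent repeats. Classical cadherins (types I and II) bind like to like and anchor the actin cytoskeleton through catenins. Non-clustered protocadherins of the delta groups adhere more weakly and signal to the cytoskeleton, and clustered protocadherins, encoded in tandem arrays, give single neurons different combinations of surface identity. In the mouse olfactory system, members of these families take part in the sorting, branching and targeting of sensory axons, which makes the family relevant to cells that also choose an odorant receptor.

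The members were all genes whose zebrafish symbol begins with pcdh, or with cdh and a digit, whatever the case of the letters. The rule found 46 of the 32469 gene rows: 21 cadherins, 14 non-clustered protocadherins and 11 clustered protocadherins. The cadherins held 3 type I, 10 type II and 8 other genes, and the clustered set held 8 genes of alpha type, 2 of gamma type and pcdhb. Symbols in capitals are orthologue-type names that do not tell zebrafish duplicates apart, so PCDH1 and PCDH18 each stand for 2 genes and are given with their identifiers. Other genes of the family that the symbol table does not name in these rows were not analysed here.

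The study measured poly(A) RNA in GFP-positive cells sorted from larval zebrafish heads, and its title concerns how G protein beta-gamma signalling limits odorant receptor expression. All larvae carried OMP-Gal4, in which the promoter of the olfactory marker protein drives Gal4, together with UAS-GCaMP1.6, a fluorescent calcium sensor. The control group (3 samples) received DMSO and the gallein group (3 samples) 100 µM gallein, an inhibitor of beta-gamma signalling. Treatment started between 16 and 20 hours post fertilization, with medium renewed every 24 hours and heads taken at 5 days post fertilization. The labels name biological replicates but do not say how many larvae were pooled or whether clutches differed, so the spread between samples is all that p-values measure here.

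Depth was similar between groups, at 30822664 to 40295728 gene counts per sample, of which the 46 members took between 0.0424% and 0.136%. The library labelled gallein replicate 2 stood apart in other genes: cartilage markers summed to 20345 CPM (counts per 1000000 counts, scaled by TMM factors) there, against 957 to 2226 CPM in the other libraries. The 5 listed marker genes of olfactory sensory neurons summed to 54.1, 49.3 and 54.5 CPM with DMSO against 25.4, 16.3 and 33.6 CPM with gallein. Every gallein sum lay below every control sum. All 5 log2 fold changes were negative, where 8640 of 18271 were over all genes tested, and 0 of the 5 passed an adjusted p of 0.05 (edgeR). OMP was at 13.4, 6.97 and 7.81 CPM in the 3 DMSO replicates against 4.79, 0.193 and 4.99 CPM in the 3 gallein replicates. In such bulk samples, fewer cells of a type and less RNA per cell cannot be told apart, and the levels below belong to a mixture of olfactory and other head cells.

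No cadherin or protocadherin gene passed the threshold between gallein and control. Of the 46 members, 37 had enough counts for the test, and by edgeR's quasi-likelihood test 0 were higher and 0 were lower at an adjusted p of 0.05, against 0% of all 18271 genes tested in either direction. At an unadjusted p under 0.05 there was 1 of the 37 members (PCDH15), against 1187 of the 18271 genes tested. The DESeq2 Wald test called 0 of the 37 members, where it called only 93 of all genes tested. The median log2 fold change was -0.21 over the 37 members, 20 of them negative and 17 positive, against 0.07 over all genes tested. It was 0.10 for the 17 tested cadherins, 0.04 for the 13 non-clustered protocadherins and -0.47 for the 7 clustered ones. All 3 gallein samples lay above all 3 controls for 2 members (CDH2 and pcdh7a), where 3.81% of all genes tested did so, and below them for 0 members, against 5.22% of all genes tested. These counts depend on the scaling: with spike-in totals as size factors 0 members were above and 4 below, beside 19 and 5457 of all genes, and with library size alone 0 members were above and 0 below, beside 188 and 2056 of all genes.

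**Figure D1:**
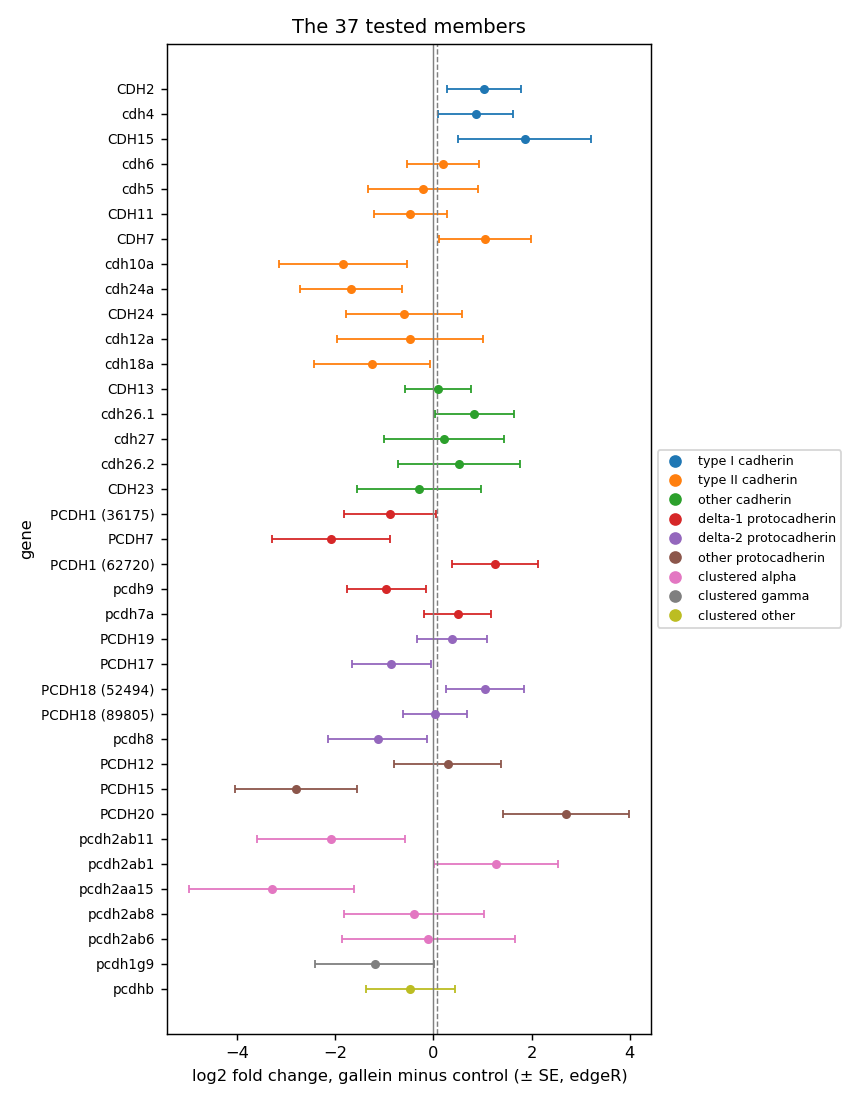
The log2 fold change of each tested member, gallein minus control, with bars of 1 standard error from edgeR and colours for the classes. The solid line is 0 and the dashed line is the median of all genes tested (0.07). Numbers in brackets are the last 5 digits of the identifier. Values run from -3.29 for pcdh2aa15 to 2.71 for PCDH20, and no member passed the threshold.

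Within a group, the median SD of log2 levels was 0.62 over the tested members and 0.56 over all genes tested in controls, and 0.71 against 0.82 in gallein. Over all 6 samples the median ratio of the highest to the lowest sample was 11.7 over the tested members and 8.52 over all genes tested. Of the 37 members, 14 (37.8%) had their lowest level in gallein replicate 2, 11 (29.7%) in gallein replicate 1 and 8 (21.6%) in control replicate 1. The shares of all genes tested were 30.01%, 17.2% and 12.1% in these libraries. Gallein replicate 3 held the lowest level of 0 members and of 16.4% of all genes tested.

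**Figure D2:**
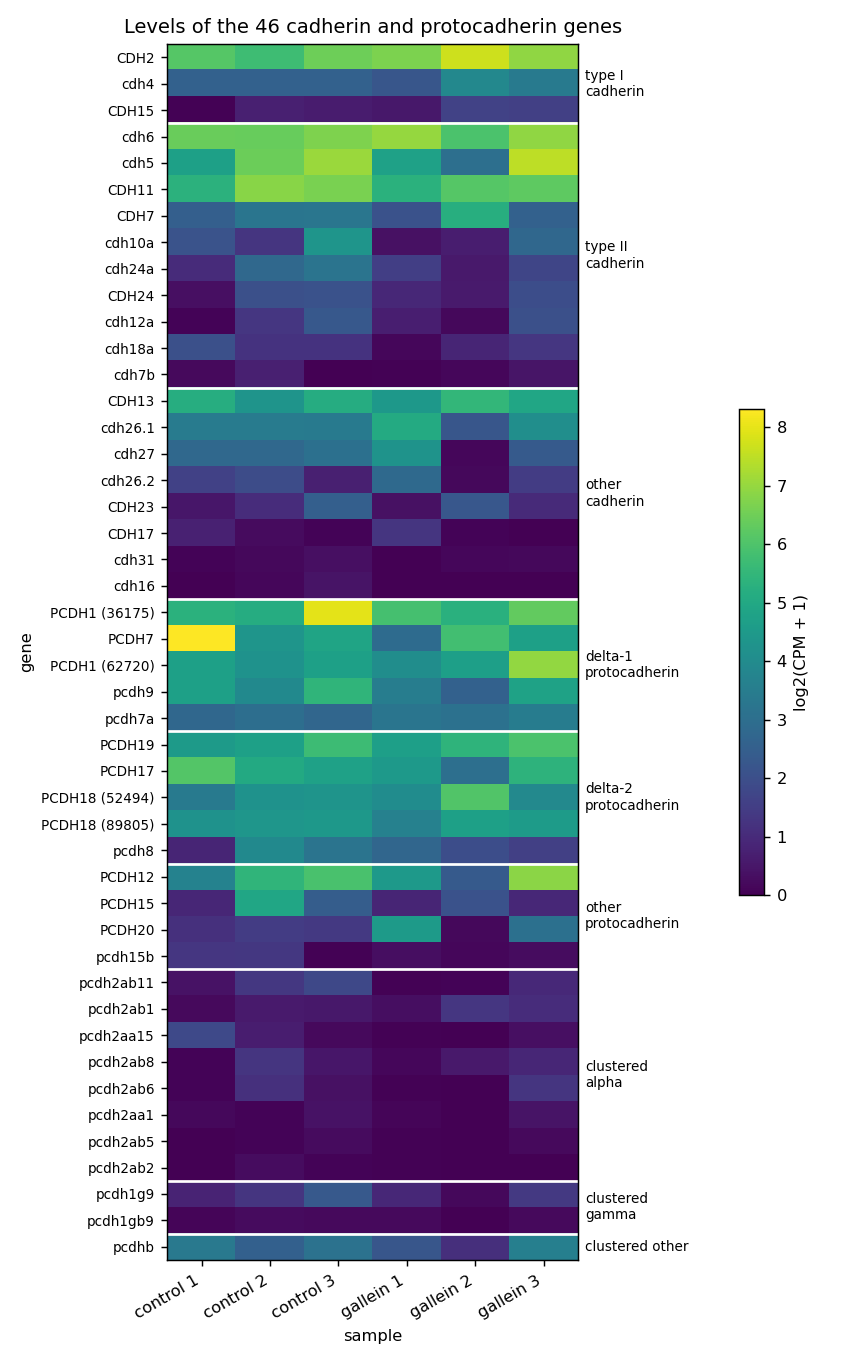
Levels of all 46 members as log2(CPM + 1), 1 row per gene and 1 column per sample, ordered by class and by mean level within a class. CPM is not corrected for transcript length, so colours compare samples within a gene and not genes with each other. Single bright cells, such as PCDH7 in control replicate 1 at 318 CPM, mark genes that stood high in 1 library.

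The 3 type I cadherins found by symbol were CDH2, cdh4 and CDH15, and no member had the symbol cdh1 (E-cadherin) or cdh3. These classical cadherins of strong like-to-like adhesion had higher mean levels in gallein in all 3 tested genes. All 3 log2 fold changes were, however, negative with spike-in totals as size factors. CDH2 (ENSDARG00000018693), N-cadherin of neural and mesenchymal cells, was at 68.5, 51.8 and 89.3 CPM in the 3 DMSO replicates against 101, 206 and 121 CPM in the 3 gallein replicates. Every gallein library was above every control, with gallein replicate 2 far above the rest. The means were 69.8 ± 18.8 and 143 ± 56.0 CPM (SD, n = 3 per group), and the log2 fold change was 1.03 ± 0.75 (SE, adjusted p = 0.828, edgeR, Benjamini-Hochberg). Without gallein replicate 2 it was 0.67, and with spike-in totals, which moved the median of all genes to -1.67, it was -0.71. The groups overlapped with those totals and with library size alone, which moved the median of all genes to -0.49.

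As a share of all cadherin counts, which no scaling changes, CDH2 took 23.6%, 12.9% and 16.8% with DMSO against 26.17%, 45.8% and 20.8% with gallein. Counting error alone was small, with a Wilson 95% interval of 20.2% to 21.3% for the lowest gallein share. Gallein replicate 3 lay below control replicate 1, so the shares overlapped. Markers of cartilage and of neural crest and pigment were highest in the library with the most CDH2: the 7 neural crest and pigment genes summed to 1118 CPM in gallein replicate 2 and to between 66.9 and 145 CPM elsewhere, with FOXD3 at 0 counts in every library. Their part in the CDH2 level was not tested.

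The related cdh4 (ENSDARG00000015002), R-cadherin of retina and brain, was the steadiest member among the controls, at 4.99, 5.02 and 4.98 CPM. In gallein it was at 3.69, 13.7 and 9.85 CPM, below the controls in replicate 1 and above them in the other 2, for a log2 fold change of 0.86 ± 0.76 (SE, adjusted p = 0.868, edgeR). CDH15 (ENSDARG00000068191), M-cadherin of skeletal muscle, was near the limit of detection, with 1, 39 and 24 counts with DMSO against 12, 44 and 73 with gallein. Its log2 fold change of 1.86 ± 1.36 (SE, adjusted p = 0.829, edgeR) came with overlapping groups. The skeletal muscle markers summed to 2147, 1117 and 631 CPM with DMSO against 2594, 2393 and 552 CPM with gallein, sums that ckma led. Of the 8 tested muscle genes, 6 were lowest in control replicate 3 and 2 in gallein replicate 3, and ACTA1 (ENSDARG00000055618) was highest in gallein replicate 3. Their part in the CDH15 level was not tested.

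**Figure D3:**
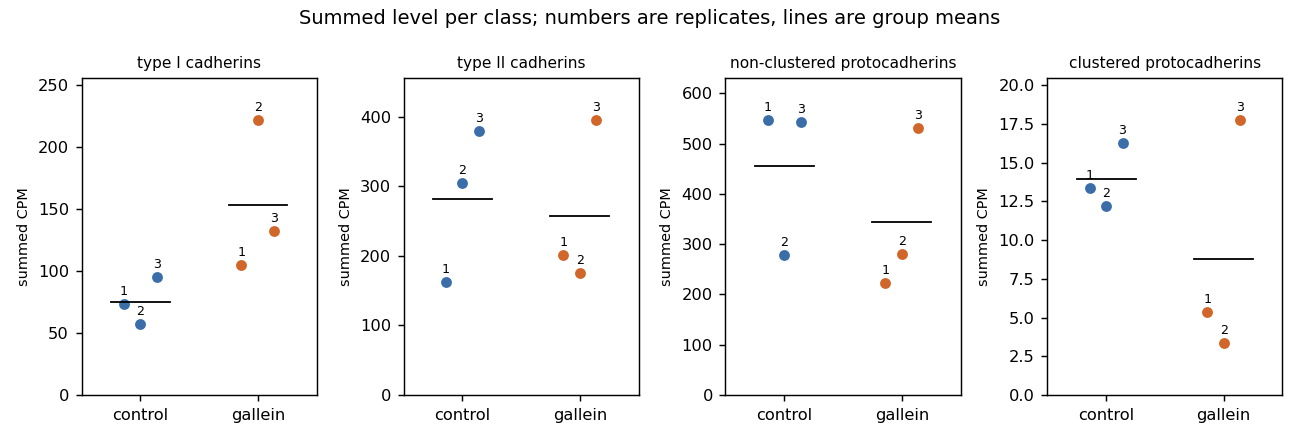
Summed CPM of the type I cadherins, the type II cadherins, the non-clustered and the clustered protocadherins in each sample, with replicate numbers beside the points and lines at the group means. Type I sums lay between 57.4 and 94.8 CPM with DMSO and between 105 and 222 CPM with gallein, while the groups overlapped in the other 3 panels. With spike-in totals or library size alone the type I sums overlapped too. Most of the type I sum was CDH2, at 68.5 of 73.5 CPM in control replicate 1 and 206 of 222 CPM in gallein replicate 2.

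Summed over the 21 cadherins, the level was 291, 401 and 532 CPM with DMSO against 386, 450 and 582 CPM with gallein. The groups overlapped, and the difference between the means of the log2 sums was 0.23.

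Type II cadherins mark particular tissues and groups of neurons, and 7 of their 9 tested genes had negative log2 fold changes, with a median of -0.48. The best known of them, cdh5 (ENSDARG00000075549), encodes VE-cadherin of endothelial junctions. It was at 25.5, 86.2 and 132 CPM with DMSO against 26.06, 7.13 and 177 CPM with gallein. Both the lowest and the highest library were gallein libraries, and the log2 fold change of -0.21 ± 1.12 (SE, adjusted p = 0.988, edgeR) turned to 0.33 without gallein replicate 2, to 0.18 without gallein replicate 1, to 0.34 without control replicate 3 and to -2.29 without gallein replicate 3.

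PCDH12 (ENSDARG00000076594), the protocadherin of endothelial cells, followed the same order of libraries: 11.8, 42.9 and 60.6 CPM with DMSO against 21.3, 4.09 and 116 CPM with gallein. The 6 libraries had the same order for both genes, and the groups overlapped. The 4 endothelial markers were uneven. KDR was at 18.98 and 114 CPM and TIE1 at 12.1 and 132 CPM in gallein replicates 2 and 3, lowest and highest in the same libraries as cdh5 and PCDH12. FLI1 and flt1 did not follow, with FLI1 at 212 CPM in gallein replicate 2 and 514 CPM in control replicate 3, and flt1 highest in gallein replicate 1 at 28.3 CPM. The number of endothelial cells in each library was not measured, and its part in these levels was not tested.

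**Figure D4:**
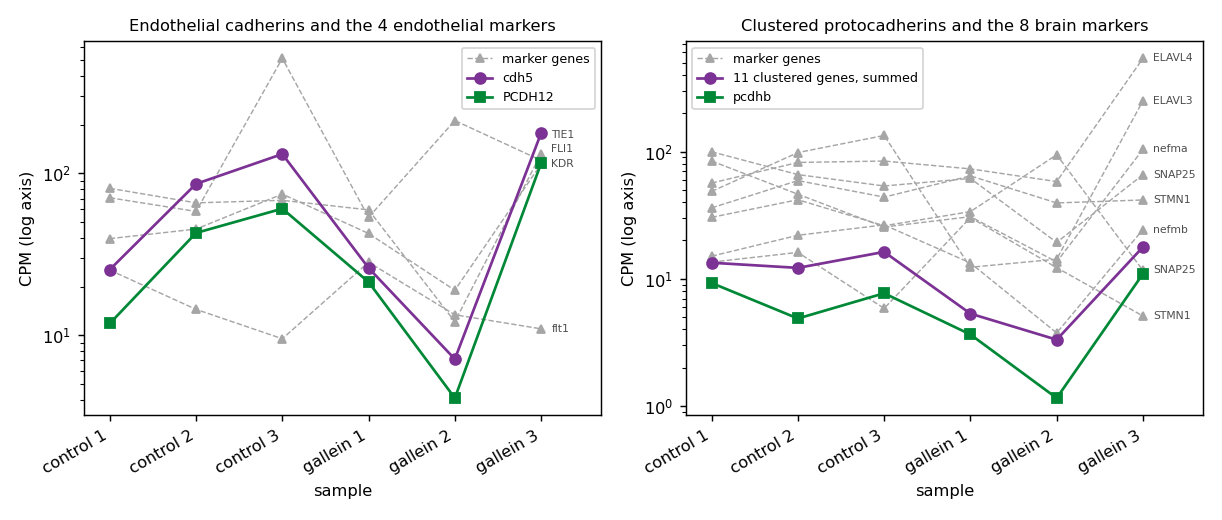
Levels on a log axis in the 6 samples, with dashed lines for marker genes and solid lines for members. Lines join the values of 1 gene and stand for no order among samples. On the left cdh5 and PCDH12 are lowest in gallein replicate 2 and highest in gallein replicate 3, as are KDR and TIE1. On the right the summed clustered protocadherins range from 3.32 CPM in gallein replicate 2 to 17.8 CPM in gallein replicate 3.

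The other type II genes with ample counts varied less. For cdh6 (ENSDARG00000014522), known from kidney, neural crest and retina, the levels were 85.1, 82.5 and 104 CPM with DMSO against 128, 61.7 and 122 CPM with gallein, with overlapping groups and a log2 fold change of 0.20 ± 0.73 (SE, adjusted p = 0.981, edgeR). CDH11 (ENSDARG00000021442), a cadherin of mesenchyme and bone, was at 39.9, 114 and 98.8 CPM with DMSO against 39.2, 68.1 and 75.5 CPM with gallein. Control replicate 1 and gallein replicate 1 were alike and low, and the log2 fold change was -0.47 ± 0.75 (SE, adjusted p = 0.943, edgeR). CDH7 (ENSDARG00000023542), expressed in migrating neural crest of the chick, stood at 36.5 CPM in gallein replicate 2 and between 3.31 and 8.53 CPM in the other 5 libraries. Its log2 fold change of 1.05 became -0.78 without that library.

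The remaining type II genes, known mainly from the brain, were sparse. For cdh10a (ENSDARG00000055843) the levels were 3.35, 1.45 and 19.4 CPM with DMSO against 0.304, 0.578 and 5.89 CPM with gallein. The highest library of each group was replicate 3, and the log2 fold change of -1.83 ± 1.30 (SE, adjusted p = 0.827, edgeR) was -0.08 without control replicate 3 and -4.20 without gallein replicate 3. For cdh24a (ENSDARG00000075960) the levels were 1.03, 5.96 and 8.25 CPM with DMSO against 1.90, 0.482 and 2.36 CPM with gallein, giving a log2 fold change of -1.68 ± 1.05 (SE, adjusted p = 0.799, edgeR) that ran from -2.15 to -1.13 as each library was left out. The duplicate named CDH24 was at 0.277, 3.10 and 3.25 CPM with DMSO against 0.913, 0.530 and 2.90 CPM with gallein. The levels of cdh12a ran from 0.0504 to 3.85 CPM and those of cdh18a from 0.114 to 3.05 CPM, each lowest in a different library. With 38 counts or fewer in any library, cdh7b was not tested. In RefSeq's table for the assembly GRCz12tu, cdh6, cdh10a, cdh12a and cdh18a are neighbours in a row, as are cdh5 and cdh11. Between its lowest and highest sample cdh6 varied 2.08-fold and cdh10a 63.8-fold.

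The cadherins outside the classical types included 1 gene with even levels and several that stood out in single libraries. CDH13 (ENSDARG00000014215), T-cadherin, which is held by a lipid anchor and has no cytoplasmic tail, was at 34.9, 18.7 and 34.6 CPM with DMSO against 20.6, 44.1 and 29.6 CPM with gallein. Its groups overlapped, with a log2 fold change of 0.10 ± 0.68 (SE, adjusted p = 0.992, edgeR). For cdh26.1 (ENSDARG00000078404) the controls were close together at 10.02, 10.05 and 9.66 CPM, and the gallein libraries were at 33.1, 3.66 and 16.4 CPM. Gallein replicates 1 and 3 lay above the controls and replicate 2 below them. Its neighbour cdh26.2 (ENSDARG00000087641) had the same order in gallein, at 6.13, 0.145 and 1.76 CPM, against 2.07, 2.86 and 0.668 CPM in controls. So did cdh27 (ENSDARG00000055093), at 18.5, 0.0963 and 4.13 CPM in gallein against 6.02, 6.04 and 7.42 CPM in controls.

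The log2 fold changes of these 3 genes were 0.84 ± 0.81, 0.52 ± 1.24 and 0.22 ± 1.21 (SE, adjusted p = 0.881, 0.965 and 0.989, edgeR). Without gallein replicate 1 they were 0.02, -0.95 and -1.61. Skin markers were mixed in these libraries, with krt5 at 1683 CPM in gallein replicate 1 and 368 CPM or less elsewhere. The 8 skin genes together summed to 8067, 4059 and 1091 CPM with DMSO against 6251, 2335 and 835 CPM with gallein. Of the 8 skin genes, 4 were lowest in control replicate 3 and 4 in gallein replicate 3. Their part in the levels of cdh26.1, cdh26.2 and cdh27 was not tested.

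CDH23, a component of the tip links of hair cells, was at 0.428, 1.08 and 4.75 CPM with DMSO against 0.304, 3.81 and 1.00 CPM with gallein, with overlapping groups. The genes CDH17, cdh16 and cdh31 had few counts and were not tested. CDH17 had between 0 and 37 counts per library, and cdh16 had 0, 6 and 16 counts with DMSO against 0 in each gallein library, so that 1 control library was at 0 as well and control replicate 3 held most of the counts. For cdh31 there were between 0 and 12 counts.

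Among delta-1 protocadherins, whose cytoplasmic tails bind protein phosphatase 1, PCDH7 and both PCDH1 genes stood high in single libraries, and pcdh7a and pcdh9 did not. PCDH7 (ENSDARG00000060610), the orthologue of NF-protocadherin of Xenopus retinal axons, was at 318, 19.3 and 28.0 CPM with DMSO against 6.47, 54.7 and 25.3 CPM with gallein. Control replicate 1 alone was high, with 12638 of its 21745 non-clustered protocadherin counts (58.1%, Wilson 95% interval 57.5% to 58.8%) from this gene, against 2.90% to 19.5% in the other 5 libraries. The log2 fold change of -2.08 ± 1.21 (SE, adjusted p = 0.786, edgeR) became 0.30 without it.

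Its duplicate pcdh7a (ENSDARG00000078898) was the most even tested member across all samples, at 5.92, 7.05 and 5.65 CPM with DMSO against 8.48, 7.61 and 10.2 CPM with gallein. All gallein libraries were above the controls, though the means of 6.21 ± 0.745 and 8.76 ± 1.30 CPM (SD, n = 3 per group) gave a log2 fold change of only 0.50 ± 0.68 (SE, adjusted p = 0.929, edgeR). The groups overlapped with upper-quartile factors, with library size alone and with spike-in totals, and the fold change was -0.04 and -1.23 under the last 2.

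The 2 genes named PCDH1 had opposite signs, each from 1 library. ENSDARG00000036175 was at 39.2, 34.2 and 249 CPM with DMSO against 57.7, 37.7 and 79.3 CPM with gallein, and ENSDARG00000062720 was at 25.3, 17.8 and 25.7 CPM with DMSO against 15.7, 24.7 and 124 CPM with gallein. The log2 fold change of ENSDARG00000036175 was -0.88 and became 0.67 without control replicate 3, while that of ENSDARG00000062720 was 1.26 and became -0.19 without gallein replicate 3. The last delta-1 gene, pcdh9 (ENSDARG00000063264), was at 25.7, 14.4 and 42.9 CPM with DMSO against 10.6, 5.06 and 27.0 CPM with gallein. Gallein replicates 1 and 2 lay below all controls and replicate 3 among them, and the log2 fold change was -0.96 ± 0.80 (SE, adjusted p = 0.853, edgeR), between -1.82 and -0.49 with 1 library left out.

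**Figure D5:**
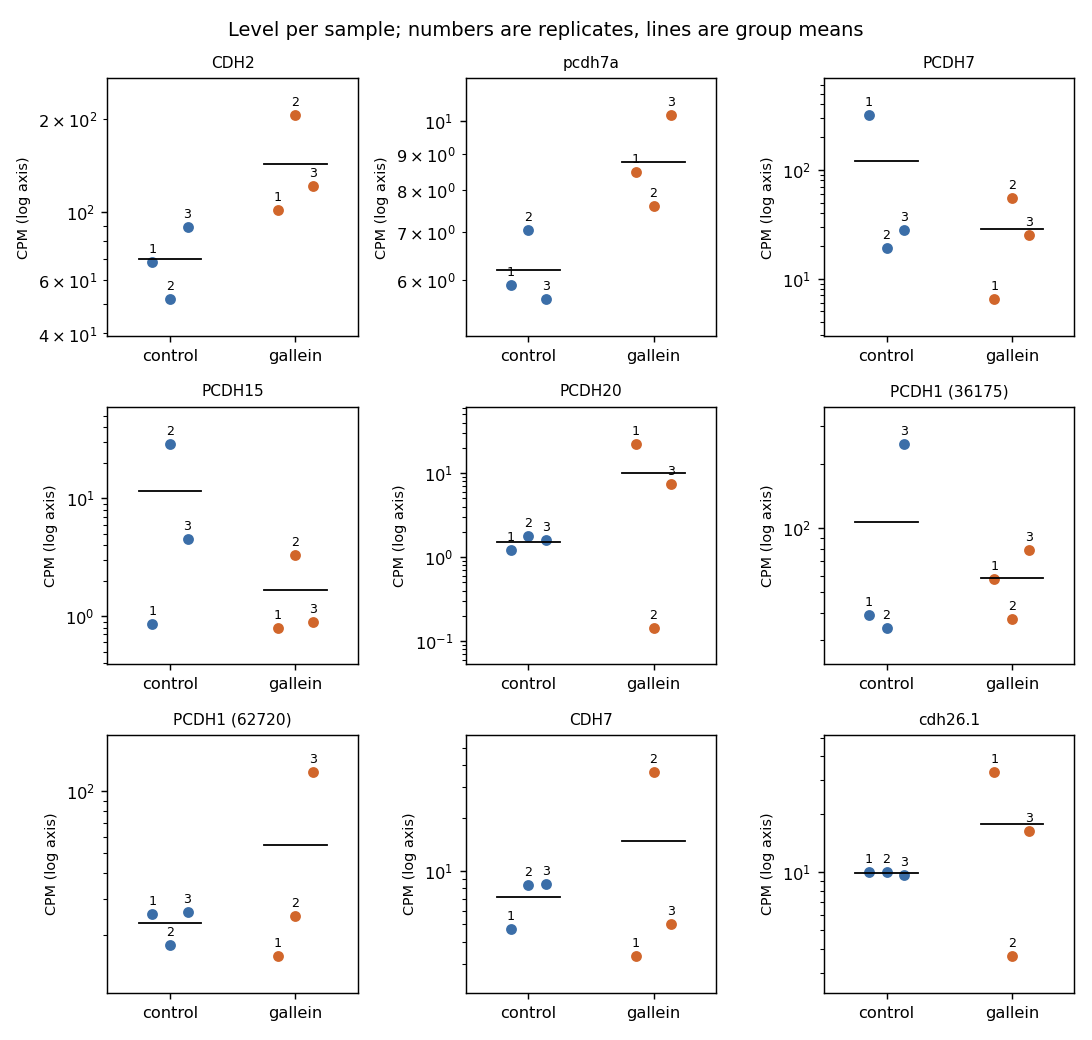
Level per sample of 9 members on log axes, with replicate numbers beside the points and lines at the group means. CDH2 and pcdh7a have all gallein points above the controls. In PCDH7 (control replicate 1), PCDH15 (control replicate 2), CDH7 (gallein replicate 2) and both PCDH1 genes 1 point carries the group mean, and PCDH20 and cdh26.1 have tight controls and gallein points on either side of them.

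Delta-2 protocadherins link to actin through the WAVE complex. PCDH17 (ENSDARG00000027041), which in mouse sits at synapses of the basal ganglia, was at 67.4, 32.5 and 25.8 CPM with DMSO against 21.8, 7.18 and 40.4 CPM with gallein. Gallein replicate 3 lay within the control range and the other 2 below it, and the log2 fold change was -0.86 ± 0.80 (SE, adjusted p = 0.875, edgeR), or -0.32 without control replicate 1. PCDH19 (ENSDARG00000034344), a human epilepsy gene that marks columns of neurons in the zebrafish tectum, was at 22.1, 25.4 and 51.5 CPM with DMSO against 24.8, 41.5 and 61.7 CPM with gallein. Its groups overlapped widely, with a log2 fold change of 0.37 ± 0.71 (SE, adjusted p = 0.955, edgeR).

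Of the 2 PCDH18 genes, ENSDARG00000089805 was even, at 17.8, 19.7 and 20.8 CPM with DMSO against 11.7, 25.7 and 22.4 CPM with gallein, giving a log2 fold change of 0.04 ± 0.65 (SE, adjusted p = 0.996, edgeR). ENSDARG00000052494 was at 65.9 CPM in gallein replicate 2 and between 9.65 and 18.6 CPM in the other 5 libraries, so that its log2 fold change of 1.05 became -0.05 without that library. The gene pcdh8, paraxial protocadherin of early mesoderm movements, was at 0.831, 14.4 and 8.18 CPM with DMSO against 5.78, 2.89 and 1.98 CPM with gallein, and its lowest and highest libraries were both controls. Summed over the 5 delta-2 genes, the level was 118, 110 and 125 CPM with DMSO against 79.6, 143 and 141 CPM with gallein, a tight control group inside the gallein range.

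Of the 4 other non-clustered protocadherins, PCDH15 and PCDH20 had the smallest p-values among the members. PCDH15 (ENSDARG00000008127), the partner of CDH23 in hair cell tip links and a protein of photoreceptors, was at 0.856, 29.1 and 4.50 CPM with DMSO against 0.799, 3.28 and 0.896 CPM with gallein. Control replicate 2 held 1702 of the counts, and the log2 fold change of -2.80 ± 1.24 (SE, adjusted p = 0.761, edgeR) was -0.70 without it. Photoreceptor markers were highest in the same library for 7 of the 8 listed genes, GNAT2 at 4698 CPM against 87.6 to 1568 CPM elsewhere, while opn1sw2 was highest in gallein replicate 1. The 8 hair cell and lateral line genes summed to 181, 132 and 970 CPM with DMSO against 169, 119 and 96.6 CPM with gallein. Among them MYO7A was highest in control replicate 2, at 10.48, 16.0 and 10.7 CPM with DMSO against 4.30, 3.28 and 2.88 CPM with gallein. MYO6 (ENSDARG00000044016) was highest in control replicate 3, where it made up 923 of the summed 970 CPM. All gallein libraries were below the controls for both genes. These were the only 2 of the 7 tested genes of the list with that order, where 5.22% of all genes tested had it. Of the 7, 3 log2 fold changes were negative and 4 positive, and the other MYO6 gene (ENSDARG00000042141) was highest in gallein replicate 2. ATOH1 was at 0.190 CPM or less in every library. Their part in the PCDH15 level was not tested. The duplicate pcdh15b had 60, 91 and 1 counts with DMSO against 6, 2 and 8 with gallein and was not tested.

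PCDH20 (ENSDARG00000036424) had the largest positive log2 fold change of the family, 2.71 ± 1.28 (SE, adjusted p = 0.778, edgeR). The controls were tight at 1.21, 1.76 and 1.61 CPM, and gallein was at 22.4, 0.145 and 7.46 CPM. Gallein replicates 1 and 3 stood above and replicate 2 below every control, the arrangement also seen in cdh26.1. Without gallein replicate 1 the log2 fold change was 1.32. Summed over the 14 non-clustered protocadherins, the level was 548, 278 and 543 CPM with DMSO against 223, 280 and 531 CPM with gallein, with a difference of -0.44 between the means of the log2 sums that was -0.18 without gallein replicate 1.

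Duplicate pairs allow a comparison inside each library that scaling does not touch. In 7 pairs chosen after their values were seen (the PCDH1, PCDH18, PCDH7, CDH24, PCDH15, CDH7 and cdh26 genes), the log2 ratio of the 2 counts (0.5 added to each) was compared between groups. The groups overlapped in all 7, and no p-value is given for pairs chosen this way. The largest difference was -1.91 for PCDH7 over pcdh7a, where the ratio was 5.75 in control replicate 1 and between -0.39 and 2.84 elsewhere on the log2 scale. For CDH24 over cdh24a the difference was 1.17, with gallein ratios of -1.04, 0.13 and 0.30 against -1.85, -0.94 and -1.34 in controls.

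The 11 clustered protocadherins found by symbol were the class with the fewest counts. Clustered genes that the symbol table does not name were not counted, so this is no measure of all clustered protocadherins. Each library held between 69 and 712 counts over all 11 genes. In vertebrates each alpha or gamma gene of such a cluster has its own promoter and first exon, joined to constant exons shared along the cluster, and single neurons switch on a few promoters through the factor CTCF and cohesin. In RefSeq's table, 6 of the 7 clustered members found there by symbol, all but pcdhb, overlap another member in span, so reads of shared exons may have been dropped as ambiguous or given to 1 gene. Values of single clustered genes, and sums and shares over them, are therefore uncertain. Ambiguous reads made up 1.94%, 1.49% and 1.22% of all counts with DMSO against 2.00%, 4.19% and 1.16% with gallein. How many of them came from clustered genes is not known, and their part in the clustered level was not tested.

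Summed over the 11 genes, the level was 13.4, 12.2 and 16.3 CPM with DMSO against 5.33, 3.32 and 17.8 CPM with gallein. Gallein replicates 1 and 2 were below every control and gallein replicate 3 above every control. The high place of gallein replicate 3 came from pcdhb, which was highest there. The alpha-type sum was highest in control replicate 2 and the gamma-type sum in control replicate 3. Over the 11 genes, the difference between the means of the log2 sums was -0.89. Without gallein replicate 3 it was -1.502 and without gallein replicate 2 it was -0.45. As a share of all member counts, the class took 1.57%, 1.76% and 1.49% with DMSO against 0.867%, 0.453% and 1.57% with gallein. The Wilson 95% interval reached at most 1.02% in gallein replicate 1 and 0.573% in gallein replicate 2, below the interval of every control for counting error alone.

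Brain markers were mixed. ELAVL3, an RNA-binding protein of neurons, was at 48.6, 98.1 and 134 CPM with DMSO against 12.3, 14.3 and 250 CPM with gallein, low and high in the same gallein libraries as the clustered sum. The gene nefma was lowest in gallein replicate 2 at 13.6 CPM and highest in gallein replicate 3 at 104 CPM, as the clustered sum was. ELAVL4 was highest in gallein replicate 3 at 539 CPM. In contrast, SNAP25 (ENSDARG00000058117) was at 94.3 CPM in gallein replicate 2 and 11.6 CPM in gallein replicate 3. STMN1 (ENSDARG00000004169) was highest in gallein replicate 1 at 30.3 CPM and lowest in gallein replicate 3 at 5.10 CPM. Of the 8 genes, 3 (37.5%) were lowest in gallein replicate 2, against 30.01% of all genes tested. In gallein replicate 3, 3 were highest and 2 lowest. The 8 brain genes as a list summed to 384, 431 and 399 CPM with DMSO against 319, 255 and 1042 CPM with gallein, with 4 negative and 4 positive log2 fold changes and 0 past the threshold. Their part in the clustered level was not tested.

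The clustered gene with the most counts over all libraries was pcdhb (ENSDARG00000077023), with 368 of 531, 285 of 712 and 334 of 706 clustered counts in the controls and 96 of 140, 24 of 69 and 403 of 655 in gallein. The levels of pcdhb were 9.27, 4.88 and 7.70 CPM with DMSO against 3.65, 1.16 and 10.9 CPM with gallein. Its groups overlapped, and the log2 fold change of -0.47 ± 0.90 (SE, adjusted p = 0.955, edgeR) was 0.00399 without gallein replicate 2. Of the alpha-type genes, pcdh2aa15 (ENSDARG00000088136) had 101, 34 and 7 counts with DMSO against 1, 0 and 10 with gallein, for a log2 fold change of -3.29 ± 1.67 (SE, adjusted p = 0.779, edgeR) that was -1.74 without control replicate 1 and -5.54 without gallein replicate 3. For pcdh2ab11 (ENSDARG00000089593) the counts were 13, 92 and 108 in controls and 1, 1 and 34 in gallein, with -2.08 ± 1.501 (SE, adjusted p = 0.828, edgeR), and -4.996 without gallein replicate 3. Both genes had their gallein counts almost wholly in replicate 3.

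In contrast, pcdh2ab1 (ENSDARG00000071904) had 6, 31 and 20 counts with DMSO against 6, 31 and 39 with gallein, and its log2 fold change was positive, at 1.27 ± 1.26 (SE, adjusted p = 0.884, edgeR). The counts of pcdh2ab8 were 2, 83 and 18 in controls and 3, 10 and 31 in gallein, and those of pcdh2ab6 were 2, 73 and 13 in controls and 1, 0 and 53 in gallein. Scaled to CPM, pcdh2ab8 was highest in control replicate 2 and pcdh2ab6 in gallein replicate 3. The gamma-type pcdh1g9 (ENSDARG00000057519) was at 0.781, 1.42 and 4.01 CPM with DMSO against 0.913, 0.145 and 1.63 CPM with gallein, giving a log2 fold change of -1.20 ± 1.20 (SE, adjusted p = 0.886, edgeR) that was -0.29 without control replicate 3. The other 4 clustered genes (pcdh2aa1, pcdh2ab2, pcdh2ab5 and pcdh1gb9) had at most 14 counts in any library and were not tested.

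Counted as detected or not, members were thinned to equal depth. With at least 5 counts after thinning each library to 30822664 gene counts, 36, 44 and 42 of the 46 members were detected in controls and 34, 29 and 43 in gallein, a difference of -5.33 between the group means within the spread of gallein (SD 7.09). The clustered genes gave 5, 9 and 10 of 11 in controls and 3, 3 and 10 in gallein. Non-clustered protocadherins were detected in nearly every library, at 12 to 14 of 14.

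Genes that work with cadherins were not called either, and those named here were chosen after their values were seen. With TMM scaling, 3.81% of all genes tested had every gallein library above every control and 5.22% had every one below. Of 22 tested catenin and junction adaptor genes, 0 passed the threshold in either direction by edgeR, with 17 positive and 5 negative log2 fold changes and a median of 0.39, against 0.07 over all genes. CTNNB1, beta-catenin, was at 400, 137 and 378 CPM with DMSO against 234, 720 and 278 CPM with gallein, with overlapping groups. The delta-catenin gene ctnnd2b had all gallein libraries above the controls, at 15.8, 56.8 and 20.8 CPM against 9.34, 13.4 and 15.6 CPM. That separation depended on the scaling: it had 414 of 38101548 gene counts in gallein replicate 1 and 678 of 34845638 in control replicate 3. VCL, with few counts, had the same order, at 1, 3 and 5 counts with DMSO against 14, 33 and 23 with gallein. Its log2 fold change was 3.77 ± 1.39 (SE, adjusted p = 0.756, edgeR). These were the only 2 of the 22 genes with that order, and 1, ARVCF (ENSDARG00000074329), had every gallein library below every control. JUP (ENSDARG00000070787), plakoglobin of desmosomes, and PKP1, a plakophilin, were highest in gallein replicate 1, at 583 and 145 CPM, the library with the most cdh26.1, cdh27 and PCDH20. The other JUP gene (ENSDARG00000059067) and PKP3 (ENSDARG00000079438) were lowest there, at 1.14 and 1.98 CPM. Of the 22 genes of this list, 5 were highest and 4 lowest in that library. Their part in the levels of cdh26.1, cdh27 and PCDH20 was not tested.

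Other cadherin superfamily genes (FAT, Dachsous, CELSR, calsyntenin and desmosomal cadherin genes) had a median of -0.38 over 19 tested genes with 0 past the threshold. One of the 2 FAT1 genes (ENSDARG00000017591) stood at 42666 CPM in gallein replicate 2 and between 64.3 and 152 CPM elsewhere. Proteases that process cadherins had a median of 0.65 over 10 genes with 0 past the threshold. Among them MMP14 (ENSDARG00000002235), a membrane matrix metalloprotease, was at 22.01, 20.1 and 23.1 CPM with DMSO against 66.3, 177 and 28.0 CPM with gallein. All gallein libraries were above the controls, with a log2 fold change of 2.06 ± 0.83 (SE, adjusted p = 0.756, edgeR). Relative to spike-in counts its groups overlapped, with 1177 per 924653 in control replicate 2 and 1743 per 3374855 in gallein replicate 1. PSEN2 was the other of the 10 genes with all gallein libraries above the controls by TMM scaling, and 0 had the opposite order. Regulators of clustered protocadherin promoters had a median of 0.35 over 19 genes with 0 past the threshold. CTCF was at 469 CPM in control replicate 1 and between 32.8 and 94.1 CPM in the other 5 libraries, and the methyltransferase gene DNMT3A (ENSDARG00000015566) at 2326 CPM in gallein replicate 1 and between 5.47 and 29.3 CPM elsewhere.

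Other homophilic adhesion genes of neurons (NCAM, L1, contactin, Kirrel, nectin, DSCAM and neuroligin genes) had a median of -0.10 over 23 tested genes, and transcription factors of the epithelial to mesenchymal transition, which repress E-cadherin, a median of 0.05 over 10 genes, with 0 of either past the threshold. Among the latter snai2, a neural crest factor, had all gallein libraries above the controls, at 44.7, 98.0 and 35.4 CPM against 29.1, 17.4 and 30.1 CPM. That separation depended on the scaling: snai2 had 1174 of 38101548 gene counts in gallein replicate 1 and 1307 of 34845638 in control replicate 3. The gene zeb2a had all gallein libraries below the controls, at 29.6, 26.3 and 39.0 CPM against 72.2, 66.1 and 47.8 CPM. The log2 fold changes of snai2 and zeb2a were 1.22 and -0.97, neither past the threshold.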

How the data were processed

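Poly(A) RNA of sorted GFP-positive cells from 3 control and 3 gallein samples was analysed from the whole-number read counts per gene that the authors deposited, with 2 files per sample. TopHat2 2.0.4, HTSeq and the build Zv9 are named in the submitters' processing notes; how HTSeq treated overlaps and strand is not stated there or in the labels. The 2 files of each sample were summed and counted as 1 replicate, since they differed far less than replicates did (chi-square per gene 1.37 to 1.76 within a sample, 426 to 1621 between replicates). The 5 rows that name no gene (19.4% to 33.9% of counts) and 92 spike-in rows were left out of library sizes.

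Members, lists, classes and tests were chosen with earlier results of these data known. Named members were those past the threshold, those whose groups did not overlap, the 4 with the highest mean CPM in each role class, the 10 with the smallest p and the 5 whose highest sample stood farthest above the next, 33 of the 46 in all. Other members are named to account for them. Permutation p-values of ratios and shares picked after their values were seen were computed but are not reported. Genes passing filterByExpr (minimum count 10) were tested with edgeR 4.0.16 (TMM, robust quasi-likelihood), R 4.3.3, with Benjamini-Hochberg adjustment over 18271 genes and a threshold of 0.05. DESeq2 1.42.0, limma 3.58.1 (voom), other size factors and filters, each file alone, a replicate block and leaving out each sample were alternatives. CPM is not length-corrected, so an order by mean CPM (used to name members and to sort the plot of levels) is no order of abundance between genes. Intervals cover counting error only. In data simulated with the real dispersions, 0% of 98 genes changed 4-fold and 0% of 94 changed 16-fold were recovered among 18658 genes; with a dispersion of 0.05, 100% of both were, so 0 calls here say little about the absence of differences.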

Additional observations from a re-analysis of the deposited data

How the results depend on the processing

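By edgeR, no alternative called a member, and DESeq2 called 54 genes higher and 39 lower, 0 of them members. The median of the clustered genes was -2.32 with spike-in totals, -0.98 with the replicate block and -1.10 with limma-voom, and ran from -1.96 to -0.10 as each sample was left out. That of the non-clustered genes was -1.59 with spike-in totals and -0.45 with library size alone, and ran from -0.19 to 0.31. The clustered sum differed by -2.37, the non-clustered protocadherin sum by -2.22 and the cadherin sum by -1.55 with spike-in totals, and the cadherin sum by -0.38 with library size alone. Spike-in counts were 1805805, 924653 and 1508279 with DMSO against 3374855, 3297639 and 1859505 with gallein. Every gallein library held more of them than every control, so scaling by them lowered gallein levels relative to controls. The cause of that difference in spike-in counts, and of the other shifts, was not tested.

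Of 31 named and tested members, 10 had no sign change and 21 had at least 1. With spike-in totals the log2 fold changes that turned were CDH13 -1.52, cdh26.1 -0.90, cdh26.2 -1.55, cdh27 -1.69, CDH15 -0.057, CDH2 -0.71, cdh4 -0.88, CDH7 -1.30, cdh6 -1.41, pcdh2ab1 -0.63, pcdh7a -1.23, the PCDH18 genes -1.19 and -1.68, PCDH19 -1.09 and PCDH12 -0.93. With library size alone they were CDH13 -0.45, cdh26.2 -0.15, cdh27 -0.45, cdh6 -0.31, pcdh7a -0.035, PCDH18 -0.51 and PCDH19 -0.080, with upper-quartile factors CDH13 -0.041 and PCDH18 -0.11, and with at least 10 counts in every sample PCDH18 -0.052. With the replicate block they were cdh27 -1.21, pcdh2ab8 0.17, PCDH18 -0.036 and PCDH12 -0.31, and with limma-voom cdh26.2 -0.29, cdh27 -1.42, pcdh2ab8 0.11, PCDH18 -0.040 and PCDH12 -0.47. Each PCDH18 value given singly here is that of ENSDARG00000089805. Of the pair with spike-in totals, -1.19 was that of ENSDARG00000052494 and -1.68 that of ENSDARG00000089805.

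With 1 sample left out, sign changes came in CDH13 (-0.23 to 0.32), CDH7 (-0.78 to 1.53), PCDH1 (-1.31 to 0.67 and -0.19 to 1.70), PCDH12 (-1.60 to 0.83), PCDH18 (-0.049 to 1.40 and -0.19 to 0.31), PCDH7 (-2.94 to 0.30), cdh26.2 (-0.95 to 1.08), cdh27 (-1.61 to 0.80), cdh5 (-2.29 to 0.34), pcdh2ab8 (-1.09 to 1.03) and pcdhb (-1.60 to 0.0040). The PCDH1 ranges are those of ENSDARG00000036175 and ENSDARG00000062720, in that order. The PCDH18 ranges are those of ENSDARG00000052494 and ENSDARG00000089805, in that order.

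The labels give samples with the same number no other shared trait that differs between numbers. Their deviations correlated at 0.067, -0.115 and 0.176, against -0.255 to 0.179 for samples with different numbers. The replicate block called 0 genes and 0 members, as did the fit without it. So few values cannot tell whether samples with the same number shared a batch. Low counts of the clustered genes limit their precision.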

Other observations

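One ratio was chosen after its values were seen. PCDH12 counts per cdh5 count, a ratio of 2 endothelial genes that no scaling changes, came to 0.465, 0.498 and 0.460 with DMSO against 0.819, 0.574 and 0.651 with gallein. Every gallein ratio lay above every control ratio, with a difference of 0.51 on the log2 scale. Because the ratio was picked for this separation, no p-value is given for it, and the ratio of gallein replicate 2 rests on only 85 and 148 counts.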
